A study of Mus musculus with 32 samples.

Results

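The genes described here encode the proteins of the cytosolic ribosome in mouse intestinal stem cells. A gene was a member if its symbol had the form of a ribosomal protein gene (Rps or Rpl and a digit) or was Rpsa, Rplp0, Rplp1, Rplp2 or Fau, if it was annotated as protein-coding, and if it averaged at least 10 CPM (counts scaled to a common library size) over all 32 libraries. The rule gave 88 members of 54418 gene identifiers. Of these, 77 were ribosomal protein genes proper, 32 of the small subunit and 45 of the large, and 3 carried pseudogene symbols (Rpl10-ps3, Rpl36a-ps1 and Rpl9-ps6). A further 5 were paralogs (Rpl22l1, Rpl36al, Rpl7l1, Rps27l and Rps27rt), and 3 encode other proteins that share the form of the symbol: the kinases Rps6ka1 and Rps6kb1 and the nucleolar protein Rps19bp1. Those 3 were also the members nearest to the threshold, with Rps6kb1 at 18.3, Rps19bp1 at 20.9 and Rps6ka1 at 21.4 CPM, while Rpl10 at 7.60 and the kinase gene Rps6ka3 at 6.67 CPM lay just below it. The rule named 5 members, Rps24, Rps4x, Rpl28, Rps26 and Rpl14, from earlier results on these data, so their values are given as a description without a test.

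Each ribosome is assembled from a small subunit, which reads the mRNA, and a large subunit, which joins the amino acids, with nearly every protein present as a single copy. Cells therefore make the ribosomal proteins in matched amounts, and their mRNAs rank among the most abundant of a dividing cell. Most of these mRNAs begin with a cytosine followed by a run of pyrimidines, the TOP tract, through which the growth regulator mTORC1 and the RNA-binding protein LARP1 control their translation together.

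The cells were GFP-high, CD326-stained epithelial cells sorted from dissociated crypts of C57BL6 mice, and polyadenylated RNA was counted at the 3′ end of transcripts. The 8 groups of 4 libraries were wild type (WT), Ppard-fl/fl (PparD), Ppara-null (PparA) and the combination of both alleles (PparDA), and each genotype was split between control and high-fat diets. The study concerns the part of fatty acid oxidation, and of the nuclear receptors PPARδ and PPARα, in the response of these cells to dietary fat. The sources used here do not give what recombined the floxed alleles, how long the diets lasted or how old the animals were. Nor do they state whether the 4 libraries of a group came from 4 animals, so p-values measure only the spread among these libraries, which may be technical. Libraries held 612672 to 724155 counts. Ppara stood at 0 to 7.09 CPM and Ppard at 0 to 11.3 CPM over all groups, too low at this depth to check the genotypes. The stem cell markers Olfm4 (7080 to 13019 CPM) and Lgr5 (28.01 to 64.3 CPM) were counted in all 32 libraries.

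The order of the column numbers limits how differences between groups can be read. The labels do not say what these numbers stand for. Column numbers run from 1 to 32 in 4 runs of 8, and each run holds every group once. Each mutant group took the same place in all 4 runs, but in WT the control library preceded the high-fat library in the first 3 runs (1 and 2, 9 and 10, 17 and 18) and followed it in the fourth (25 is high-fat, 26 is control). In the mutants, a difference between groups and a difference between places in a run therefore cannot be told apart.

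The first transcribed bases of some members on which the results turn are shown to relate them to the TOP tract. They come from RefSeq (build GRCm38.p6), 15 bases before and 15 from the annotated start, 5′ to 3′, and capitals mark a C followed by at least 4 pyrimidines from the annotated start on. Rpl28, Rpl14, Rps15a and Rps6 hold such a tract, and Rps4x, Rps26 and Rps7 do not at this start.
Rpl28 (chr7:4792950-4792979, plus strand): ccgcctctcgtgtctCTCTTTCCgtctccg
Rpl14 (chr9:120571502-120571531, plus strand): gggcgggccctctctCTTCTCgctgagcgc
Rps15a (chr7:118116133-118116162, minus strand): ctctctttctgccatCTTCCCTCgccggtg
Rps6 (chr4:86857353-86857382, minus strand): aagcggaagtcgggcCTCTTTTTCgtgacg
Rps4x (chrX:102189377-102189406, minus strand): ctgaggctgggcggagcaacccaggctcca
Rps26 (chr10:128626492-128626521, minus strand): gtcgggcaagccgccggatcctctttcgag
Rps7 (chr12:28635939-28635968, minus strand): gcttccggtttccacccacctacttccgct
Of the 88 members, 65 had a RefSeq promoter entry, and 15 of those (23.1%) held the tract at the annotated start, against 813 of 27025 genes (3.01%). Allowing the tract to begin within 5 bases of the start on either side gave 32 members (49.2%), against 21.2% of all genes. Annotated starts can lie some bases away from the start a tissue uses, and only the transcribed strand was searched. The 4 departures from the common level, described below, held the tract at the annotated start in Rpl28 and Rps15a. They did not hold it there in Rps4x and Rps24, whose sequence is not shown.

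Ribosomal protein mRNA made up a large and fairly even part of every library. The 88 members together held 15.9 to 22.9% of all counts, with a mean of 19.0%. In WT the share was 16.2, 17.8, 15.9 and 19.1% under control feeding and 17.4, 22.0, 20.04 and 18.01% under high-fat feeding, in order of run. PparD libraries held 20.2, 22.9, 20.97 and 17.2% under control and 21.1, 21.3, 19.1 and 20.2% under high-fat feeding. PparA libraries held 17.3, 17.6, 16.8 and 19.0% under control and 19.2, 18.3, 20.8 and 18.1% under high-fat feeding. PparDA libraries held 18.3, 18.9, 17.4 and 16.9% under control and 21.6, 21.5, 19.6 and 18.01% under high-fat feeding. The ranges of the 2 diets overlapped in every genotype. Group means ran from 17.2% ± 1.502 (SD, n = 4) in WT under control feeding to 20.4% ± 0.976 in PparD under high-fat feeding. Without the 5 members named in the rule, the share in PparA was 16.2% ± 0.988 on control and 15.2% ± 0.951 on high-fat diet, so that its higher total under high-fat feeding came from those members. In bulk samples, a lower level of a transcript in each cell and fewer cells of the type that carries it cannot be told apart.

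**Figure D1:**
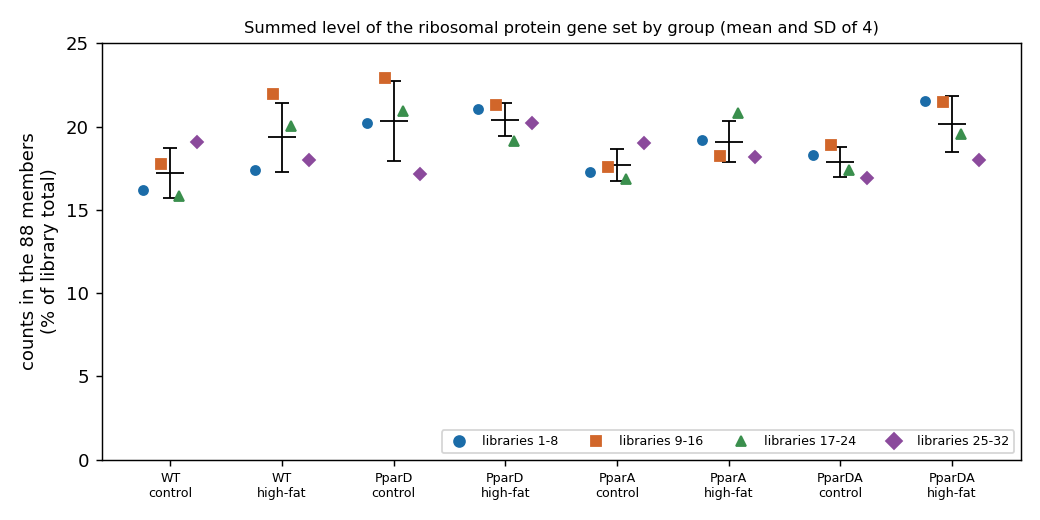
Share of each library's counts (y axis, percent of the total) held by the 88 members, by group (x axis). Each point is a library, with symbol and colour for its run, and the bar and whiskers are the mean and SD of 4. Groups overlap, with every library between 15.9 and 22.9%.

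The 5 most abundant members by the mean over all libraries were Rps4x (mean of 11326 CPM), Rps18 (8224 CPM), Rps14 (7918 CPM), Rpl41 (7531 CPM) and Rps19 (7269 CPM). Rps4x, Rps18, Rps14 and Rps19 encode small subunit proteins, and Rpl41 a very short peptide of the large subunit. The first place of Rps4x came from some groups only. In WT under control feeding Rps14 (7557 CPM) and Rps18 (7402 CPM) stood above it at 7246 CPM, and Rps18 was also above it in PparA under control feeding and in PparD and PparDA under high-fat feeding. The median member stood at 1599 CPM. Levels are in CPM without a length term, since reads were counted at the 3′ end.

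Most members moved together from library to library. The Pearson correlation of a member's log2 level with the median of the other members over the 32 libraries had a median of 0.79, and 70 of 88 exceeded 0.5. With group means removed the median was 0.82, and 72 members exceeded 0.5. These correlations share their libraries and scaling factors and are a description. Members with a low correlation included Rps6kb1 (−0.32), Rpl28 (−0.13), Rpl35 (−0.07) and Rps4x (−0.01). The steadiest relative to the common level was Rps6, the small subunit protein that the kinase S6K phosphorylates. Its distance from the median of all members had an SD of 0.08 on the log2 scale over all 32 libraries. Rpl29, Rps7, Rps3a1 and Rpl23a followed, each with an SD of no more than 0.10. Rps6 stood at 3629, 4474, 3348 and 4461 CPM in WT under control feeding and at 4083, 5680, 4523 and 4428 CPM under high-fat feeding.

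On the high-fat diet the members as a group sat slightly higher in WT, PparD and PparDA and slightly lower in PparA, but the sign was the same in every run only in PparDA. The median log2 fold change, high-fat over control, was 0.25 in WT (83 of 88 members higher), 0.12 in PparD (72 higher), −0.10 in PparA (27 higher) and 0.32 in PparDA (81 higher). Over all 5872 genes tested the medians lay within 0.01 of 0, and 48.5 to 49.7% of genes were higher. At an adjusted p under 0.05 (edgeR's quasi-likelihood test, Benjamini-Hochberg over all 5872 genes), 0 members were called in WT (0.102% of all genes) and 0 in PparDA (0.0341%). In WT 32 members had an unadjusted p under 0.05 (36.4%, against 7.66% of all genes), and DESeq2 called 0. In PparDA the unadjusted count was 52 (59.1%, against 8.79% of all genes), and DESeq2 called 23 of 35 genes in all. In PparD 2 members were called (0.0851% of all genes), both lower under high-fat feeding, and in PparA 3 were called (0.136%), all higher (0.119% of all genes were called higher). These counts include members that the rule chose for such differences. Of the 83 members not named in the rule, 1 was called in PparD and 1 in PparA.

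**Figure D2:**
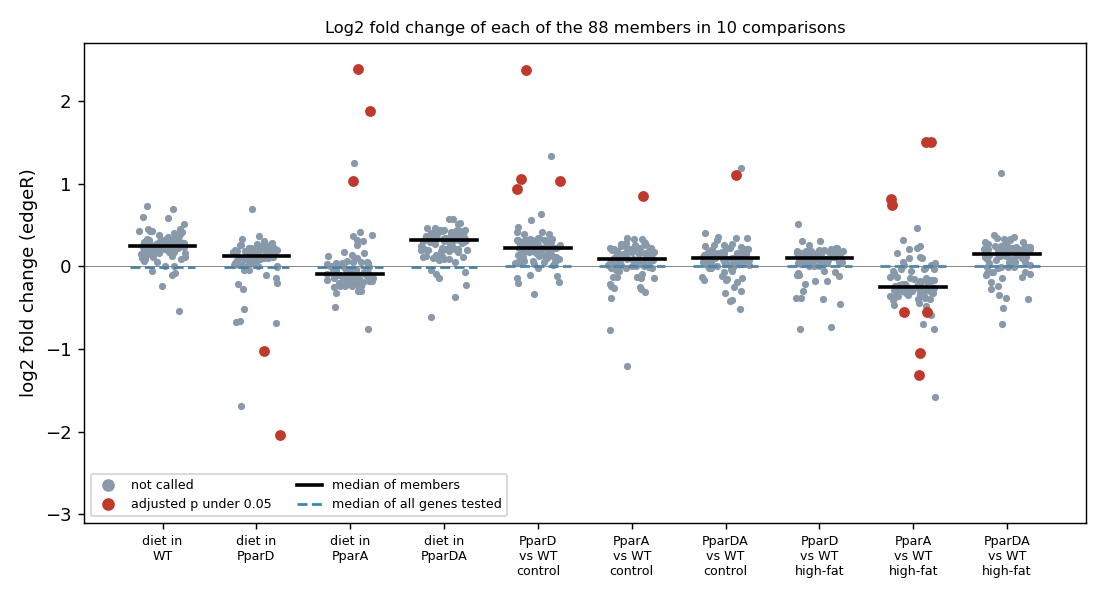
Log2 fold change (y axis, edgeR) of each of the 88 members in the 4 diet comparisons and the 6 comparisons with WT (x axis). Red points have an adjusted p under 0.05 over all genes tested, black bars are the members' median and dashed blue lines the median of all genes. The members' medians lie between −0.25 and 0.32, and a few members stand far from them.

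Set run by run, the small shift of the common level had the same sign in all 4 runs only in PparDA among the 4 genotypes. The median difference of the 88 members between the PparDA high-fat and control library, on the log2(CPM + 1) scale, was 0.40, 0.30, 0.39 and 0.15 in runs 1 to 4. In WT it was 0.26, 0.40 and 0.38 in the first 3 runs and −0.06 in the fourth, where the places were exchanged. In PparD it was 0.21, −0.04, −0.10 and 0.48. In PparA it was 0.01, −0.09, 0.10 and −0.40. Within runs 1 and 3 alone the median fold change in PparA was 0.04, and within runs 2 and 4 it was −0.25. The median of all other genes lay between −0.02 and 0.02 in every pair.

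Among genotypes, PparA under high-fat feeding stood lowest against WT. There the members' median log2 fold change was −0.25, with 17 of 88 higher, and 8 members were called against 0.749% of all genes, 4 higher (0.494% of all genes) and 4 lower (0.255%). Of the 83 members not named in the rule 4 were called, 1 higher and 3 lower. On the same diet the median was 0.10 in PparD, with 0 members called (0.017% of all genes). There 9 members had an unadjusted p under 0.05 (10.2%, against 3.78% of all genes). In PparDA the median was 0.15, with 0 called (1.57%, split into 0.937% higher and 0.63% lower). Its unadjusted count was 14 (15.9%), near the share of all genes (13.6%). DESeq2 called 0 members in both genotypes, of 6 and 102 genes in all. On the control diet the medians against WT were 0.22 in PparD, 0.10 in PparA and 0.10 in PparDA. Called there were 4 members in PparD (0.204% of all genes), 1 in PparA (0.562%, and 0.426% higher) and 1 in PparDA (1.87%, split into 1.23% higher and 0.647% lower), and all of these members were higher than in WT. In PparDA the share of all genes called exceeded the share of members, 1.14% for 1 of 88. Of the 83 members not named in the rule 2 were called in PparD, 0 in PparA and 0 in PparDA. These comparisons share the WT libraries of a diet.

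Whether the effect of diet differed between each mutant and WT was also fitted, again with members in the count that the rule chose for such differences. For PparD 2 members were called (0.0511% of all genes), both with a lower effect than in WT, and for PparA 3 (0.153%), all with a higher effect. Of the 83 members not named in the rule, 1 was called for PparD and 1 for PparA. For PparDA 0 members and 0 genes in all were called, and DESeq2 called 1 member, which was its only call. In PparDA 3 members had an unadjusted p under 0.05 (3.41%, against 5.76% of all genes). The members' median differences were −0.12, −0.36 and 0.06. WT enters each of these, with the exchanged places of libraries 25 and 26. Without those libraries the numbers of members called became 6, 8 and 3, out of 10, 23 and 5 genes called in all.

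Among small subunit genes, Rps24 left the common level most. Its protein sits near the mRNA channel and is needed to process the small subunit's rRNA, and mutations in it cause Diamond-Blackfan anaemia in people. Rps24 (ENSMUSG00000025290, chromosome 14, 24487125 to 24496959 on GRCm38) stood at 7389, 7372, 7756 and 6117 CPM in PparD under control feeding and at 1779, 1936, 1534 and 1716 CPM under high-fat feeding. All 4 control libraries of PparD lay above every other library of the study. WT libraries stood at 1120, 1401, 1064 and 1930 CPM under control and 1951, 2517, 2062 and 1319 CPM under high-fat feeding. PparA libraries stood between 1221 and 1591 CPM on both diets. In PparDA the control libraries, at 3165, 3093, 2725 and 2878 CPM, lay between these levels and above the high-fat libraries, at 2337, 2220, 1744 and 1482 CPM. The log2 fold change was −2.04 ± 0.17 (SE) for diet in PparD, and against WT under control feeding it was 2.38 ± 0.17 in PparD and 1.105 ± 0.16 in PparDA. Relative to the median of all members, Rps24 in PparD under control feeding was 2.08 log2 units above its median over the other groups.

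Rps4x, the X-linked copy of a small subunit protein gene, was highest in PparA under high-fat feeding. It stood there at 23776, 23172, 30673 and 28976 CPM, against 7400, 7099, 7918 and 6511 CPM under control feeding. All 4 of these high-fat libraries exceeded every other library. The next highest group was PparD under control feeding, at 15059, 13424, 13064 and 13919 CPM, also clear of the remaining libraries. WT libraries stood at 6587, 6717, 6281 and 9400 CPM under control and 10540, 10389, 11372 and 5174 CPM under high-fat feeding, and the fourth value of each went against the other 3. The log2 fold change for diet in PparA was 1.88 ± 0.16, and against WT it was 1.51 ± 0.16 in PparA under high-fat feeding and 0.94 ± 0.16 in PparD under control feeding. In PparDA Rps4x ranged from 7678 to 9651 CPM over both diets.

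Rpl28, a large subunit gene with no bacterial counterpart, rose with Rps4x in the same libraries. Its PparA high-fat libraries stood at 4234, 5959, 9311 and 7420 CPM and its PparA control libraries at 984, 1359, 1465 and 1314 CPM. The lowest of the first group lay above every library of the other 7 groups, where PparDA under control feeding reached furthest at 3542 CPM. WT libraries ranged from 1473 to 3100 CPM over both diets. The log2 fold change for diet in PparA was 2.39 ± 0.21, and in PparA against WT under high-fat feeding 1.51 ± 0.21. In PparD the high-fat libraries, at 1338 to 1601 CPM, lay below the control libraries, at 1882 to 2725 CPM, with a log2 fold change of −0.69 ± 0.21.

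**Figure D3:**
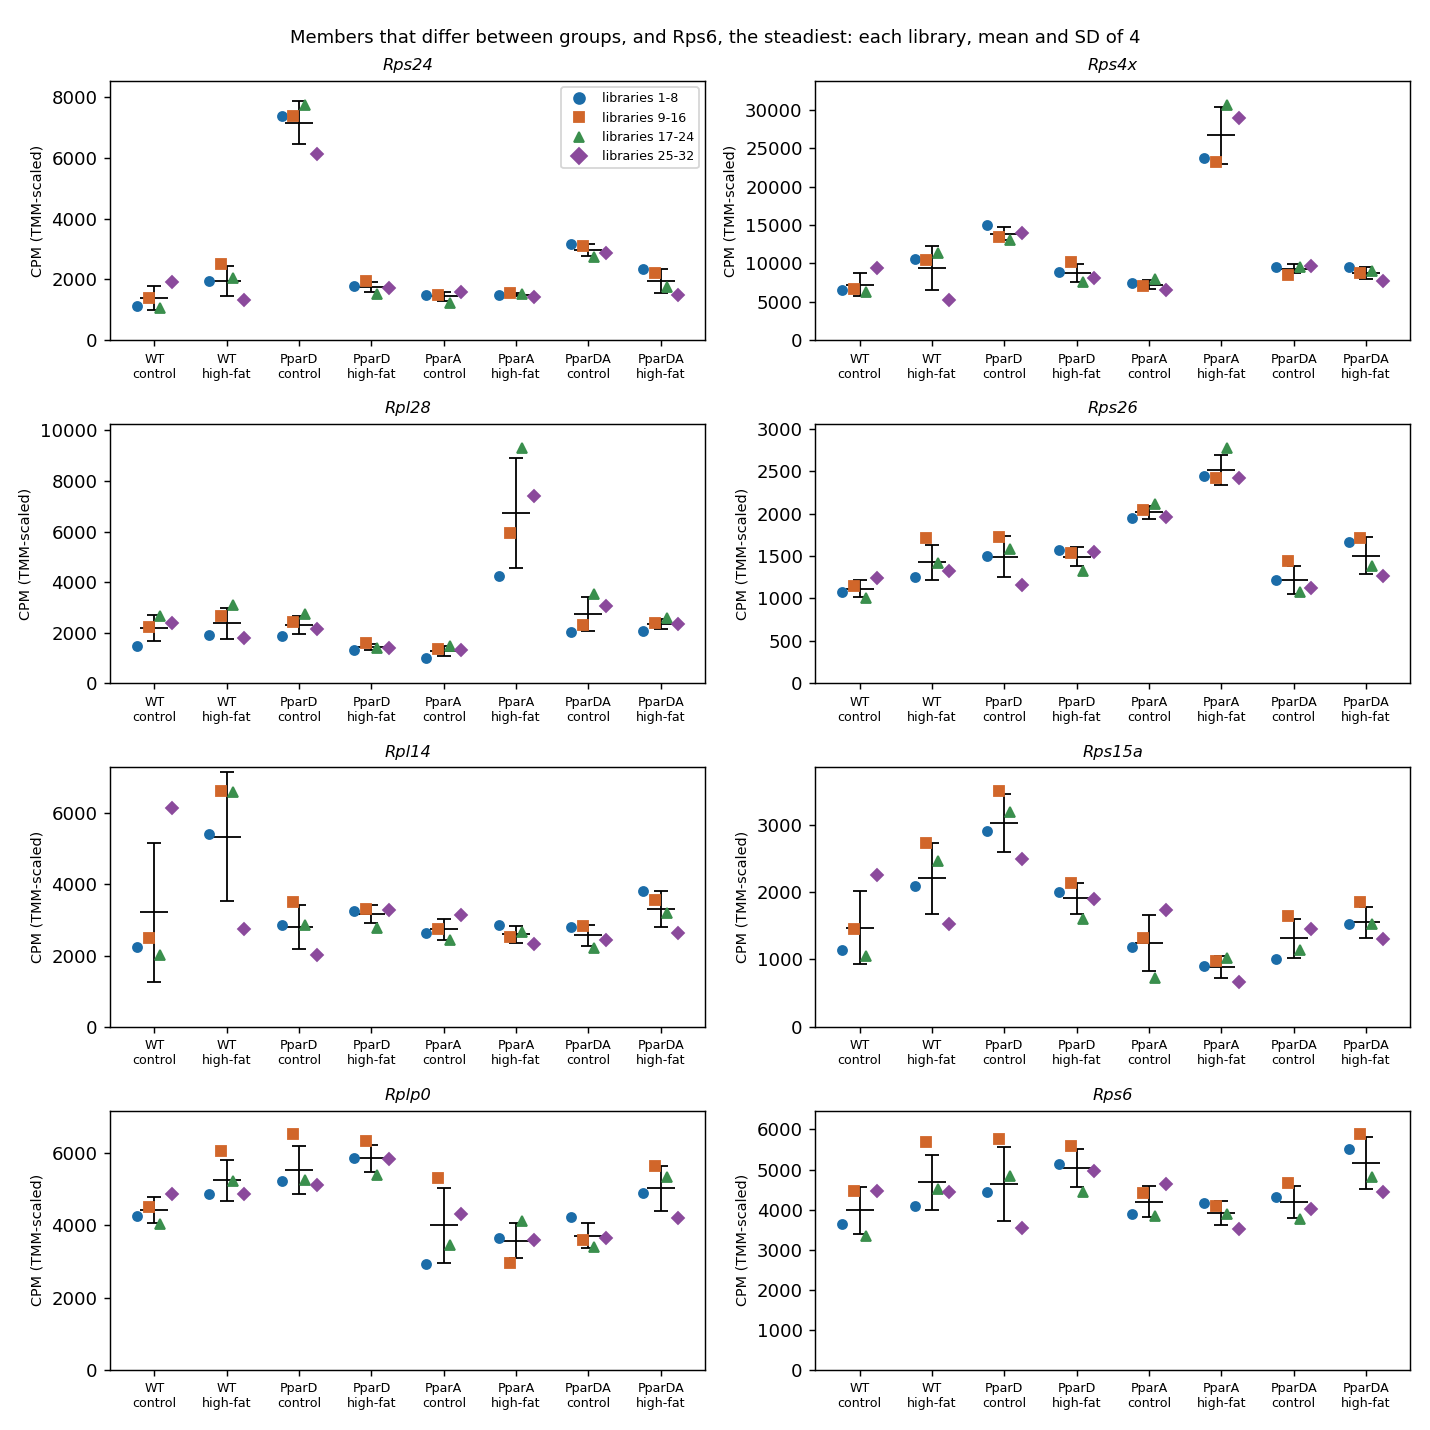
CPM (y axis, linear, TMM-scaled) of 7 members whose levels differed between groups, and of Rps6, by group (x axis). Points are libraries, with symbol and colour for the run, and bars and whiskers are the mean and SD of 4. Rps24 is high in PparD under control feeding, Rps4x and Rpl28 in PparA under high-fat feeding, and in WT the fourth-run library of Rpl14 lies on the side of the other diet.

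Rps26, whose protein contacts mRNA just upstream of the start codon, was higher in PparA on both diets. It stood at 1950, 2042, 2111 and 1960 CPM under control and 2448, 2417, 2774 and 2421 CPM under high-fat feeding. Those 8 libraries lay above all 24 others, which ranged from 1007 to 1723 CPM. Against WT the log2 fold change was 0.85 ± 0.12 under control and 0.82 ± 0.12 under high-fat feeding, and for diet within PparA it was 0.32 ± 0.12. The PparDA libraries, which carry the same Ppara allele, stood at 1073 to 1706 CPM, inside the range of WT and PparD.

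Rps15a, a small subunit gene with a TOP tract at its annotated start, was highest in PparD under control feeding and lowest in PparA under high-fat feeding. The first group stood at 2918, 3506, 3188 and 2499 CPM and the second at 894, 974, 1015 and 664 CPM, with WT high-fat libraries at 2085, 2739, 2471 and 1522 CPM. WT control libraries stood at 1143, 1447, 1049 and 2250 CPM. Rps15a was lower in PparA than in WT under high-fat feeding by a log2 fold change of −1.31 ± 0.23 (edgeR adjusted p = 0.0011). It was higher in PparD than in WT under control feeding by 1.04 ± 0.23 (edgeR adjusted p = 0.037). The second call was lost without any 1 of libraries 1, 9, 17, 3, 11 and 19 (adjusted p 0.085 to 0.24, log2 fold changes 0.91 to 1.06), and with a robust prior in edgeR (adjusted p = 0.084).

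On the high-fat diet PparA also had fewer counts of Rplp0, the central protein of the ribosomal stalk that recruits elongation factors, and of Rps25, a small subunit protein used by several viral internal ribosome entry sites. Rplp0 stood at 3661, 2953, 4132 and 3583 CPM in PparA and at 4864, 6055, 5222 and 4864 CPM in WT, with no overlap, a log2 fold change of −0.55 ± 0.13 (edgeR adjusted p = 0.040). Pseudogenes matching the end of Rplp0 stood at 1085 CPM in these PparA libraries and 11.5 CPM in WT on average, and with them added the log2 fold change was −0.17 (edgeR adjusted p = 0.49) and the call was lost. These pseudogenes stood at 1086 to 1588 CPM in the 4 group means of PparA and PparDA and at 10.6 to 14.4 CPM in those of WT and PparD. Rps25 stood at 1124, 1089, 929 and 867 CPM in PparA and at 1400, 1743, 1406 and 1312 CPM in WT, also with no overlap, a log2 fold change of −0.55 ± 0.13 (edgeR adjusted p = 0.044). Both calls were lost without any 1 of libraries 2, 10, 14, 18 and 30, that of Rplp0 also without 25 and that of Rps25 also without 22. The adjusted p then lay between 0.055 and 0.21 for Rplp0 and between 0.063 and 0.21 for Rps25, with log2 fold changes from −0.47 to −0.59 and from −0.45 to −0.59.

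In the test for any difference among the 8 groups 22 members were called, against 4.33% of all genes, and 18 of them were not named in the rule. The 18 held 8 small subunit genes and 10 large subunit genes, with the 3 stalk proteins Rplp0, Rplp1 and Rplp2 counted in the large subunit. Of these 18, WT under control feeding was the lowest group for 9 and PparA under high-fat feeding for 4, while PparDA under high-fat feeding was the highest for 10 and PparD under high-fat feeding for 6. This order was not particular to the 18. Over all members the same groups were lowest for 45 and 24 and highest for 49 and 19. The gap between the highest and lowest group mean of log2 CPM was 1.78 in Rps15a, and wide gaps were also in Rps2 (0.98), Rps10 (0.86), Rpl5 (0.77), Rplp0 (0.72), Rps25 (0.61), Rps21 (0.60), Rpl19 (0.60), Rplp1 (0.58), Rps15 (0.53) and Rpsa (0.51). Rpl5, which with Rpl11 carries the small 5S rRNA and can bind the p53 regulator Mdm2, stood at 1134 ± 190 CPM in PparD under high-fat feeding and 662 ± 85.8 CPM in PparDA under control feeding (SD, n = 4, edgeR adjusted p = 0.042). Rpsa, which is also a laminin receptor, stood at 1580 ± 171 CPM in PparDA under high-fat feeding and 1103 ± 62.8 CPM in WT under control feeding (edgeR adjusted p = 0.034). The count moved with the processing. Without library 12 or 28, both PparD under high-fat feeding, this test called 14 members, and the number of all genes called then is not given here. It called 58 (of 460 genes in all) with the run as a factor, 60 (of 872) without a filter on low counts and 42 (of 376) with DESeq2. In the main test 254 genes were called in all.

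A departure was counted when a group's mean distance from the common level differed from the median of the other groups by at least 1 log2 unit and its libraries did not overlap the rest. The 4 departures were Rps24 in PparD under control feeding (2.08), Rps4x (1.83) and Rpl28 (1.75) in PparA under high-fat feeding, and Rps15a in PparD under control feeding (1.06). Of these, Rps24, Rps4x and Rpl28 were named in the rule from earlier results on these data, and only Rps15a was not. The share of all genes that would meet both conditions was not computed, so the count is a description. Rps13 (−1.34) and Rps26 (1.09) in PparA under high-fat feeding reached the size but overlapped other groups. Rps23 (0.48) and Rpl26 (0.38) in the same group did not overlap the rest but were under the size. The paralog Rps27rt, an intronless copy of Rps27, was at 0 in 19 of 32 libraries and reached 508 CPM in the others, so its distances were not used. A count of 0 allows up to 3 counts, or 4.14 to 4.90 CPM at these depths, for counting error only.

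In WT the places of the diets were exchanged in libraries 25 and 26 only, and there several members kept the order of the places rather than that of the diets. Since both libraries belong to run 4, place cannot be told apart from a difference of that pair or of that run. Rpl14, a large subunit gene, stood at 5425, 6630, 6593 and 6140 CPM in the second library of runs 1 to 4 (2, 10, 18 and 26) and at 2230, 2480, 2026 and 2743 CPM in the first (1, 9, 17 and 25). The first 3 of the high libraries are from the high-fat diet and the fourth from the control diet. Grouped by diet, WT Rpl14 was 3219 ± 1956 CPM under control and 5348 ± 1824 CPM under high-fat feeding, with overlap, and grouped by place it did not overlap. The 24 libraries of the mutants stood at 2004 to 3825 CPM, all below the 4 higher WT libraries. The log2 fold change of −1.04 ± 0.25 between PparA and WT under high-fat feeding rests on WT libraries 2, 10 and 18.

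The same order held for other members in WT. The mean high-fat minus control difference on the log2(CPM + 1) scale over runs 1 to 3 and the difference in run 4 were 1.23 and −0.86 for Rpl39, 0.98 and −0.53 for Fau, 1.01 and −0.56 for Rps15a, 0.87 and −0.55 for Rps24, 0.72 and −0.86 for Rps4x, and 1.47 and −1.16 for Rpl14. Fau encodes a small subunit protein fused to a ubiquitin-like part, and Rpl39 a short protein of the exit tunnel. The kinase gene Rps6kb1 had the reverse order, −1.09 and 1.01, at 7.39 to 25.4 CPM. Of the 18 members whose difference over runs 1 to 3 was at least 0.5 in size, 1 kept the sign of the diet label in run 4 and 16 kept the sign of the place. Without the members named in the rule these were 1 and 13 of 15. Over all 88 members, 79, 83 and 83 were higher under high-fat feeding in runs 1 to 3 and 26 in run 4. A change of sign was therefore shared by most members, and the 16 are not separate observations. Among all other genes tested 1041 had a difference of that size, of which 530 kept the sign of the diet label and 502 that of the place. Across the 88 members the Pearson correlation between the mean difference over runs 1 to 3 and that of run 4, both high-fat minus control, was −0.62, and −0.57 over the 83 members not named in the rule. Across the 5784 other genes it was 0.03. These are correlations across genes within 8 libraries, and genes are not independent replicates.

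**Figure D4:**
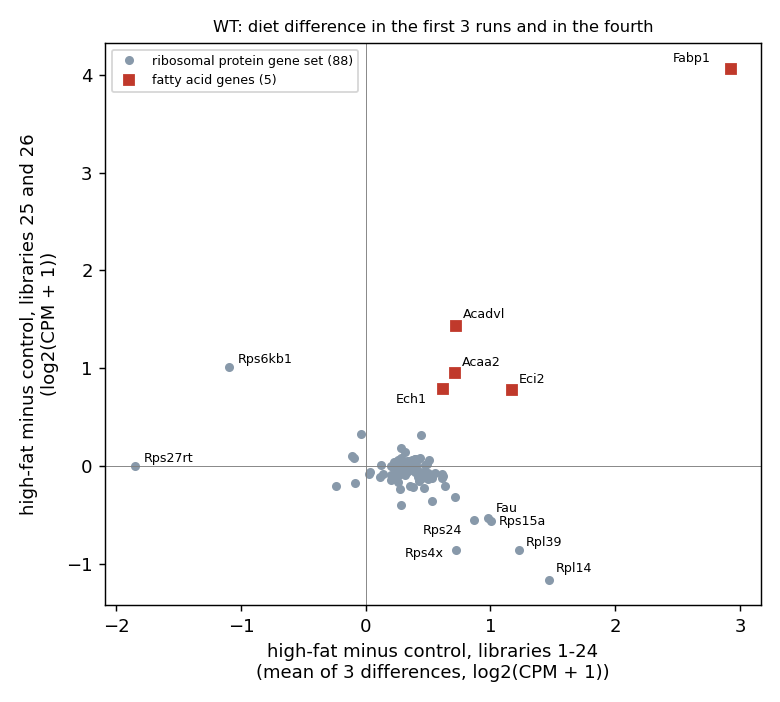
High-fat minus control difference in WT on the log2(CPM + 1) scale, as the mean over libraries 1 to 24 (x axis, 3 differences) and in libraries 25 and 26 (y axis). Grey points are the 88 members and red squares 5 chosen genes of fatty acid use. Rpl14, Rpl39, Fau, Rps15a, Rps24 and Rps4x lie at the lower right, while Fabp1, Acadvl, Acaa2, Ech1 and Eci2 lie at the upper right.

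In the same libraries Fabp1, Acadvl, Acaa2, Ech1 and Eci2 followed the diet label. They are a chosen set, and other genes of fatty acid use are not given here. Fabp1, the fatty acid binding protein of liver and gut, stood at 162, 144, 153 and 97.1 CPM in WT control libraries 1, 9, 17 and 26 and at 1227, 2158, 602 and 1635 CPM in high-fat libraries 2, 10, 18 and 25. Libraries 25 and 26 stood with their own diet's libraries in Fabp1 and with the other diet's libraries in Rpl14. Fabp1 was itself called higher under high-fat feeding in WT with both libraries under their labels (edgeR adjusted p = 0.035). Its match to the labels is therefore not an independent check of them. Whether a step of library preparation that goes with the place moved the members that kept the order of the places was not tested.

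Sequence shared with other genes limits what a count of a member means. The last 300 bases of 74 members matched at least 1 other gene over 100 bases or more at 95% identity or more, mostly processed pseudogenes, which are intronless copies of mRNAs. In 23 members the member itself held less than 95% of the counts of itself and its matches, and in 8 less than 50%. Rpl35 held 8.47%, with the predicted gene Gm2000 at 8022 CPM, and Rpl24 held 35.3%, with Gm28037 at 1966 CPM. Rpl10 was below the threshold while Rpl10-ps3, annotated as protein-coding on chromosome 9, stood at 1606 CPM. Rpl14 had no match, and the matches of Rps24 and Rps4x were each below 10 CPM on average.

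Rps13, a small subunit gene, showed a split between copies. Rps13 stood at 240, 627, 601 and 240 CPM in PparA under high-fat feeding and at 1088, 1728, 1168 and 1102 CPM in WT on that diet. The pseudogene Rps13-ps1, which matches its end at 99.3% over 295 bases, stood at 852, 507, 376 and 557 CPM in those PparA libraries and at 136, 0, 0 and 12.8 CPM in the WT libraries. Of the 32 libraries 11 had no count of Rps13-ps1, all outside PparA, while PparDA library 8 reached 1516 CPM and library 7 reached 941 CPM. Added together, the pair stood at 1000 ± 151 CPM in PparA and 1309 ± 283 CPM in WT under high-fat feeding (SD, n = 4), and those ranges overlapped at 1115 to 1134 CPM.

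**Figure D5:**
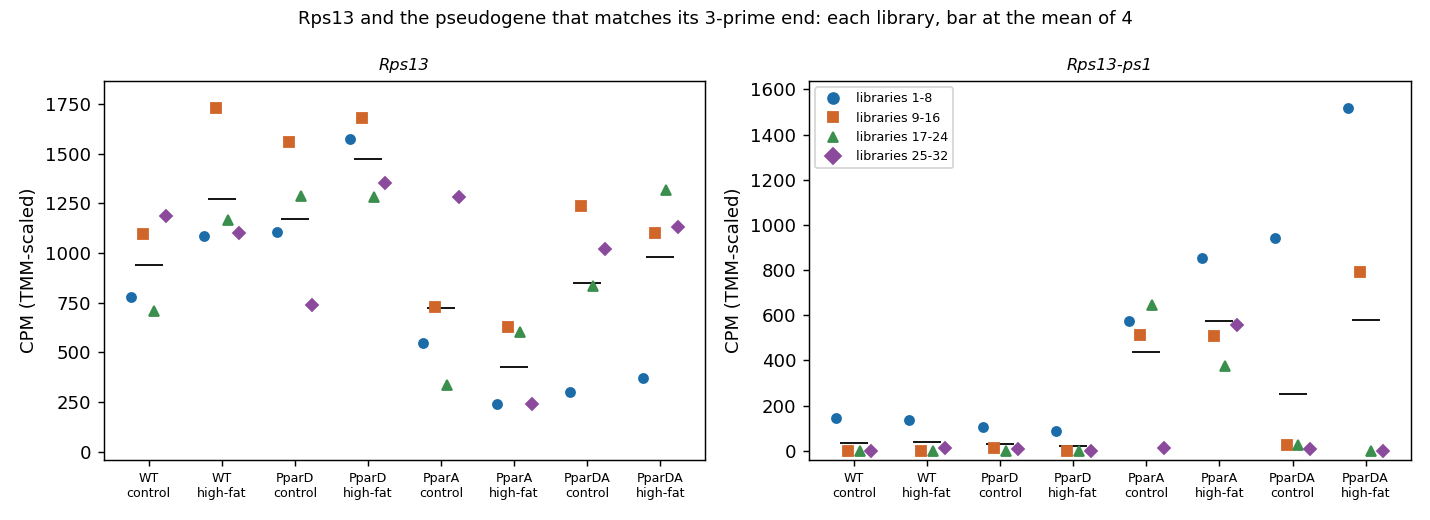
CPM (y axis, linear, TMM-scaled) of Rps13 and of Rps13-ps1 by group (x axis). Points are libraries, with symbol and colour for the run, and bars are means of 4. The 4 PparA libraries under high-fat feeding and PparDA libraries 7 and 8 are low in Rps13 and high in Rps13-ps1, while WT library 17 is low in both and PparDA library 16 is not low in Rps13.

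Rps26 and Rps26-ps1, at 1597 and 1638 CPM on average, rose and fell together (Pearson r = 0.97 over the 32 libraries). Their sum was 5230 ± 461 CPM in PparA and 2854 ± 504 CPM in WT under high-fat feeding.

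Outside the members, the genes most like some of those described, by the Pearson correlation of log2 CPM over the 32 libraries, were Ppt2 (0.79) and Ptms (0.72) for Rps24, Trmt112 (0.75) and Hint1 (0.74) for Rps4x, Usp47 (0.71) and Trmt112 (0.69) for Rpl28, and Txnip (0.73) and Pfdn5 (0.70) for Rpl14. For Rps15a they were Bzw2 (0.76) and Mat2a (0.74).

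Among other genes of translation, taken from lists, the elongation factors had medians near those of the members, and the medians of the initiation, biogenesis and regulator lists were smaller or of another sign. Of 7 elongation factor genes tested, edgeR called 0 over the 8 groups, with 5 at an unadjusted p under 0.05, and their median log2 fold change for diet was 0.25 in WT, 0.17 in PparD, −0.09 in PparA and 0.23 in PparDA. Initiation factors had medians of 0.06, 0.03, −0.04 and 0.09 in the same order. The 8 other TOP mRNAs had 0.10, 0.12, −0.06 and 0.18, and the 2 ribosomal relatives 0.21, 0.18, −0.04 and 0.35. Over the 8 groups edgeR called 0 in both lists, with 3 and 2 genes at an unadjusted p under 0.05. Of all genes tested, 17.4% had such a p over the 8 groups. Of 30 initiation factor genes 1 was called, Eif3h, a subunit of eIF3, which was higher in PparA than in WT under high-fat feeding by a log2 fold change of 0.81 ± 0.18 (edgeR adjusted p = 0.019). Of 32 ribosome biogenesis genes tested 1, Ncl, which encodes nucleolin, was called over the 8 groups (edgeR adjusted p = 0.039), and the list's medians were −0.01 in WT, 0.03 in PparD, 0.01 in PparA and 0.17 in PparDA, with 16, 21, 18 and 27 of 32 higher. Regulators of translation had medians of −0.30, −0.20, 0.23 and 0.00, with signs opposite to the members' in WT, PparD and PparA. Of 6 regulators of translation tested 1, Stk11, the kinase that activates AMPK, was lower under high-fat feeding in PparD by −2.02 ± 0.37 (edgeR adjusted p = 0.0094).

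Markers of other crypt cells were present in all groups. Summed over 8 markers, Paneth cell genes stood at 3727 to 13530 CPM in WT under control and 6473 to 38011 CPM under high-fat feeding, at 1804 to 14025 and 4368 to 9041 CPM in PparD, at 2650 to 14973 and 5586 to 34261 CPM in PparA, and at 3522 to 35968 and 9215 to 18201 CPM in PparDA. Goblet cell genes spanned 1391 to 7729 CPM over all libraries, and of 7 tested 4 were called over the 8 groups, with Zg16 and Clca1 higher in PparDA than in WT under control feeding. Enterocyte genes summed to 747 ± 100.1 CPM in WT under control and 2274 ± 792 CPM under high-fat feeding, to 775 ± 165 and 1440 ± 151 CPM in PparD, to 1583 ± 1297 and 2493 ± 1783 CPM in PparA and to 1366 ± 160 and 1971 ± 704 CPM in PparDA (SD, n = 4). The rise of the WT sum lay largely in Fabp1, at 139 CPM under control and 1406 CPM under high-fat feeding on average. For diet in WT the list's median log2 fold change was 0.06, with 5 of 8 genes higher and only Fabp1 called. The diet medians were 0.73 in PparD, 0.49 in PparA and 0.32 in PparDA, with 6, 7 and 6 of 8 higher. Of 8 enterocyte genes 6 were called over the 8 groups, and 8 of 8 were higher than in WT under control feeding in PparA (median log2 fold change 2.32) and in PparDA (2.04), where edgeR called none of the 8 in either comparison. Lymphocyte markers summed to at most 15.4 CPM, stromal markers to 7.39 CPM and red blood cell markers to 9.90 CPM. The part of these cell types in the shift of the common level was not tested.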

How the data were processed

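The authors deposited estimated counts per gene for 32 libraries, made from 3′-end reads in a way the sources used here do not describe, and a table of log2(CPM + 1) values per gene, deposited by the authors and used only as an alternative. The build mm10, R 4.0.2, Salmon 1.1.0 and edgeR 3.30.2 are listed in the submitters' processing notes, with no role for any of them. The sources do not say whether molecular identifiers were used. The counts were already whole numbers. Library numbers are the numbers in the deposited columns, which name each library's group. Of 54418 identifiers 54096 were matched to GENCODE release M21 for symbols, biotypes and coordinates.

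Genes were kept by filterByExpr in edgeR 4.0.16 (minimum count 10, minimum total 15), which left 5872 genes, all 88 members among them. TMM factors ran from 0.942 to 1.07, and CPM values use them with some exceptions. Means over all 32 libraries were left without the factors for the threshold, the 5 most abundant members, the median member and Rpl10-ps3. The floors for a count of 0 also leave them out. All 32 libraries entered 1 quasi-likelihood fit that had a term for every group, with two-sided tests and Benjamini-Hochberg adjustment over all genes in each comparison, and a call is an adjusted p under 0.05. The common biological coefficient of variation was 21.7%. Fold changes are given with their SE and CPM with the SD. The method was tested on simulated data. Matches between 3′ ends came from blastn 2.17.0. DESeq2 1.42.0, limma 3.58.1, other scalings and filters, the run of 8 column numbers as a factor, single runs, sums with matching genes and leaving out each library were tried as alternatives. Members, gene lists and tests were chosen with earlier results of these data known, and leaving out libraries 25 and 26 and summing genes with matching ends were chosen after seeing the data. Besides the 5 members in the rule, members were named if they departed from the common level, were among the 12 with the widest gap between group means of those called over the 8 groups, were among the 5 most abundant or the 5 steadiest, or are not ribosomal proteins. Rps13, Rps23, Rpl26, Rpl39, Fau, Rpl24 and Rpl35 were named after their values were seen. Some members and list genes are counted in the totals but not reported here by name. Floors for a count of 0 cover counting error only, since reads from amplified cDNA need not be separate molecules.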

Additional observations from a re-analysis of the deposited data

Results flagged for a closer look

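Of the summed level and 7 members checked in each group for a library far from the other 3, 8 of 64 groups held one. For unselected and independent groups chance gives about 1 in 20, or 3.2. These members were chosen from the same data and share their libraries, so the count is a description and not a test. In WT the flagged values were Rps4x at 9400 CPM in control library 26 and 5174 CPM in high-fat library 25, Rpl14 at 6140 CPM in control library 26 and Rps13 at 1728 CPM in high-fat library 10. Libraries 25 and 26 are those with exchanged places. In the mutants they were Rps4x at 8435 CPM in PparDA control library 15, Rps26 at 1322 CPM and Rpl14 at 2786 CPM in PparD high-fat library 20, and Rps26 at 2774 CPM in PparA high-fat library 22.

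The diet effect of 3 members named here differed between a mutant and WT. On the log2 scale it exceeded that in WT by 2.28 for Rpl28 and 1.51 for Rps4x in PparA. In PparD it differed from that in WT by −2.55 for Rps24. These are descriptions, as these members were chosen for such differences.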

How the results depend on the processing

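No paired analysis was possible because the column names carry no replicate number, so columns could be tied to replicate numbers only by their order, and the planned replicate block was not run. The run of 8 column numbers was fitted as a batch factor in its place. No called direction reversed. The numbers of members called changed as follows, with the number of all genes called in parentheses. For the effect of diet in WT, PparD, PparA and PparDA edgeR called 0 (6), 2 (5), 3 (8) and 0 (2). Without a filter on low counts these were 6 (99), 7 (78), 6 (106) and 4 (59), so calls rose over all genes as well. The same setting gave 3 (210) for PparA and 4 (327) for PparDA against WT on the control diet. Against WT on the high-fat diet it gave 2 (83), 15 (288) and 3 (301) for PparD, PparA and PparDA. It gave 6 (55), 8 (80) and 1 (71) for the difference of the diet effect from WT in PparD, PparA and PparDA. Over the 8 groups it gave 60 (872). With the run as a factor the calls were 4 (14) for diet in PparD and 2 (9) for diet in PparDA. Against WT they were 2 (53) for PparA and 3 (165) for PparDA on the control diet. On the high-fat diet they were 1 (10) for PparD and 1 (128) for PparDA. The difference in PparDA had 1 (4), and the test over the 8 groups 58 (460). Within runs 1 and 3 the calls were 5 (6) for diet in WT. Against WT on the high-fat diet they were 1 (3), 5 (18) and 1 (39) for PparD, PparA and PparDA. For the differences they were 5 (6), 1 (3) and 1 (2). Within runs 2 and 4 the calls were 1 (2) for diet in PparD. Against WT on the control diet they were 1 (3), 0 (65) and 0 (57) for PparD, PparA and PparDA. On the high-fat diet they were 4 (105) for PparA. The differences in PparD and PparA had 0 (1) and 1 (1), and the test over the 8 groups 4 (157). These half-size fits had 16 libraries. Without WT libraries 25 and 26 the calls were 6 (13) for diet in WT, 4 (10) in PparD and 1 (3) in PparDA. Against WT they were 2 (74) for PparDA on the control diet. On the high-fat diet they were 1 (5) for PparD and 1 (65) for PparDA. For the differences they were 6 (10), 8 (23) and 3 (5). DESeq2 called 4 (13) for diet in PparD and 23 (35) in PparDA, and 2 (43) for PparA against WT on the control diet. It called 4 (8) and 1 (1) for the differences in PparD and PparDA, and 42 (376) over the 8 groups. limma on the deposited log2 values called 4 (12) for diet in PparD and 1 (1) for the difference in PparDA. Sums with pseudogenes of the same symbol gave 2 (31) for PparA against WT on the control diet and 1 (6) for PparD on the high-fat diet. Sums with genes of matching ends gave 3 (25) for PparA and 3 (105) for PparDA on the control diet. On the high-fat diet they gave 2 (6) for PparD and 1 (82) for PparDA. Apart from what each setting itself changes, the cause was not tested. RLE factors, TMM factors without the members and a robust prior kept every such number within 1.5 times.

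Leaving out 1 library at a time gave 14 to 32 calls over the 8 groups (14 without library 12 or 28), 0 to 2 for diet in WT (2 without library 26), 2 for diet in PparD and 3 in PparA in every case, and 0 in PparDA. Against WT on the control diet it gave 3 to 5 in PparD, 1 to 2 in PparA (2 without library 1) and 1 in PparDA. On the high-fat diet it gave 0 in PparD, 5 to 9 in PparA (5 without library 2, 10, 18 or 30) and 0 to 1 in PparDA (1 without library 10). The differences gave 2 to 4 in PparD (4 without library 26), 2 to 5 in PparA (5 without library 26) and 0 to 1 in PparDA (1 without library 25 or 26). The numbers of all genes called without each library are not given here. A change in these counts therefore cannot be told from a change over all genes. The log2 ratio of the summed share, high-fat over control, was 0.10 to 0.22 in WT, −0.07 to 0.07 in PparD, 0.07 to 0.15 in PparA and 0.14 to 0.22 in PparDA. With 4 libraries a group and at most 724155 counts each, changes in members of low count such as Rps6kb1 were measured with little precision.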
